A study of Mus musculus with 30 samples.

Results

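Thra, Thrb, Dio1, Dio3, Thrsp, Ttr and Klf9 are 7 genes of thyroid hormone action and transport, and their RNA levels were followed in fetal mouse liver and lung after exposure of the dams to perfluorooctane sulfonate (PFOS). They were chosen by name, and each was measured by the probe set of its symbol with the highest mean over all 30 arrays. On the array, 6 of the 7 had at least 1 probe set, out of 18193 genes named by the platform annotation. These 6 genes had 19 probe sets in all, namely 3 for Thra, 1 for Thrb, 1 for Dio1, 3 for Thrsp, 4 for Ttr and 7 for Klf9. Dio3 was not analysed here.

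PFOS is a persistent fluorinated surfactant that is known to lower circulating thyroxine in rodents. Pregnant dams of CD-1, an outbred mouse stock, received the potassium salt of PFOS by gavage at 0, 5 or 10 mg/kg/day on gestation days 1 to 17. All 3 dose groups received the same vehicle, 0.5% Tween 20, and fetal tissue was taken on gestation day 18. Each array held RNA pooled from 3 fetuses of 1 litter, with 5 litters for each tissue and dose, so a litter is the replicate.

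Thyroxine travels in plasma bound to carrier proteins, enters cells through membrane transporters, and is turned into the active triiodothyronine, or inactivated, by deiodinases. Triiodothyronine binds nuclear receptors that sit on response genes together with retinoid X receptors and, depending on the hormone, recruit corepressors or coactivators. In the liver this system is best known for its control of lipid synthesis and cholesterol turnover, and the liver also makes the plasma carriers. Sulfation and glucuronidation in the liver mark the hormone for excretion.

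Levels are given on the log2 scale of the deposited array summaries, on which 1 unit is a factor of 2 in signal. A level of one probe set cannot be set against that of another, so each gene is compared with itself across tissues and doses. The 40th percentile of all probe sets, used as the limit of dim signal, lay between 4.16 and 4.23 on the liver arrays and between 4.16 and 4.22 on the lung arrays. Passing that limit on at least 5 of the 15 arrays of a tissue qualified a gene for testing, which 5 of the 6 genes did in liver and 4 did in lung. Tests were made with limma across all genes, with Benjamini-Hochberg adjustment, and an adjusted p under 0.05 is what called means here. Mean levels over an array ran from 5.08 to 5.10, and replicate arrays of 1 group correlated at 0.990 to 0.995 with no 2 arrays identical. The liver arrays carried liver markers, since the mean level of 8 hepatocyte markers was between 13.03 and 13.17. Markers of lung epithelium averaged 11.03 to 11.45 on the lung arrays and 4.59 to 5.31 on the liver arrays.

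No member was called at either dose in either tissue. In liver at 10 against 0 mg/kg/day, 0 of 5 tested members passed, while 10.5% of all genes tested were called. At 5 against 0 mg/kg/day in liver it was 0 of 5 against a background of 6.07%, and at 10 against 5 mg/kg/day 0 of 5 against 0.00754%. In lung, 0 of 4 tested members passed at 10 against 0 mg/kg/day, with 0.0543% of all genes called, at 5 against 0 mg/kg/day, with 0.0155%, and at 10 against 5 mg/kg/day, with 0%. At an unadjusted p under 0.05, 1 of the 5 members passed in liver at 10 against 0 mg/kg/day, and none did in the other 5 comparisons between doses. For all genes the unadjusted count was 3178 in that liver comparison, 24% of the genes tested. In liver this share was 19.8% at 5 against 0 mg/kg/day and 7.8% at 10 against 5 mg/kg/day. In lung it was 6.91% at 10 against 0, 4.62% at 5 against 0 and 2.3% at 10 against 5 mg/kg/day. The median change of the tested members in liver was -0.15 at 10 and -0.08 at 5 mg/kg/day, beside -0.02 and -0.01 over all genes tested. In no member and no comparison between doses were the litters of 2 groups fully apart, a split shown in liver by 9.04% of all genes tested between 10 and 0 mg/kg/day, 7.6% between 5 and 0, and 1.15% between 10 and 5. In lung these shares were 1.23% between 10 and 0 mg/kg/day, 0.837% between 5 and 0, and 0.333% between 10 and 5.

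**Figure D1:**
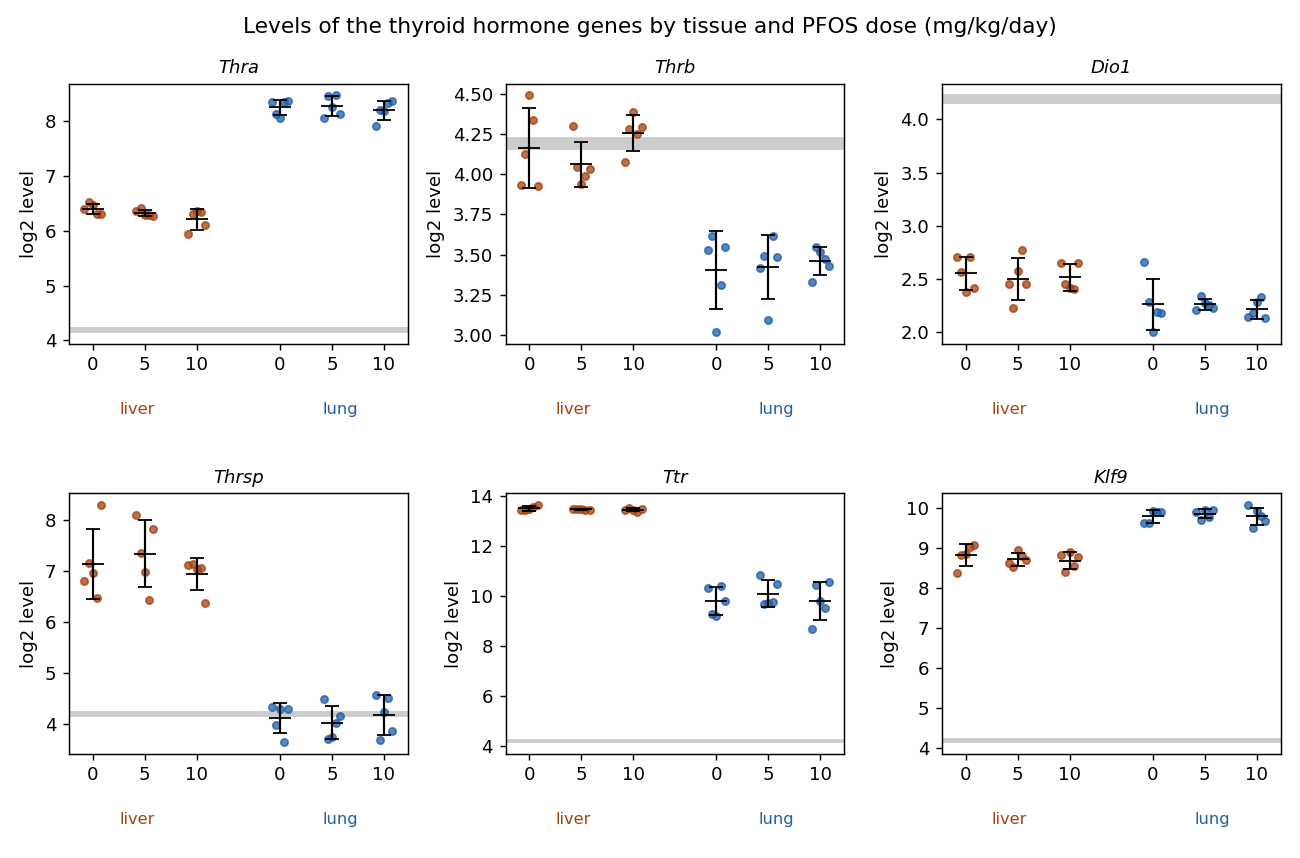
Log2 levels of the 6 measured genes in each litter, by tissue and dose in mg/kg/day, each panel with its own scale. Points are litters, black marks are group means with SD (n = 5), and the grey band is the range over arrays of the 40th percentile of all probe sets. Dose groups overlap in every panel, while liver and lung lie apart for every gene shown except Dio1, which lies under the band in both tissues.

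**Figure D2:**
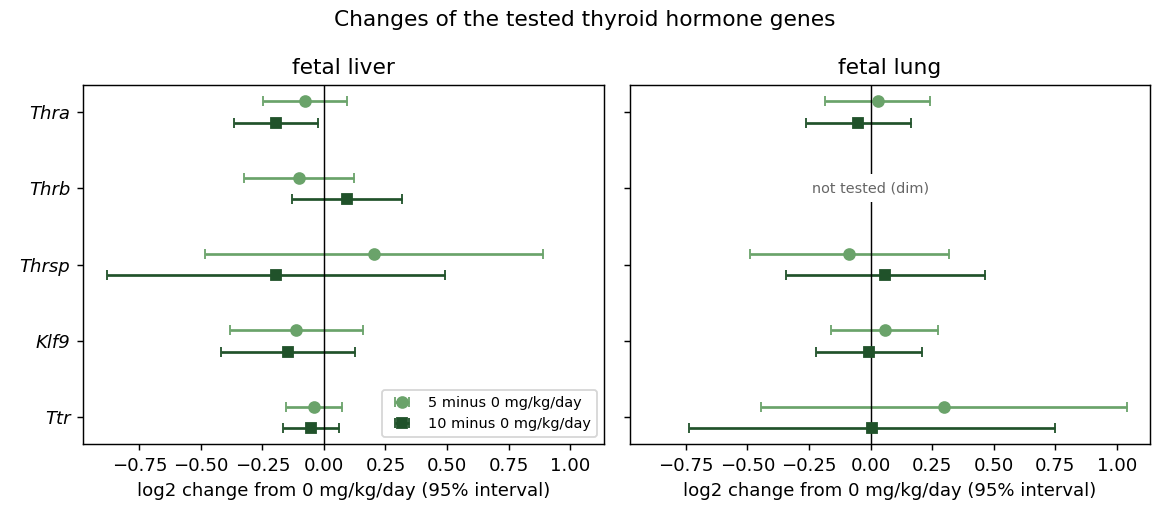
Log2 change against 0 mg/kg/day of each tested member in liver (left) and lung (right), with 95% intervals from the limma fit; circles are 5 and squares 10 mg/kg/day. Among the intervals drawn, that of Thra in liver at 10 mg/kg/day, -0.36 to -0.02, is the one that leaves out 0, and its adjusted p was 0.150.

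Promoters are shown for the carrier gene that rose in liver, Serpina7 (thyroxine-binding globulin), for the response gene with the biggest rise there, Me1 (malic enzyme), and for the members Thrsp, Klf9 and Thrb, whose changes were not called, so that the sequences before genes that were and were not called can be read side by side. They are RefSeq windows of build GRCm38.p6 from 250 bases before to 50 bases after the first listed start, 5′ to 3′ on the gene's strand. Capitals mark the receptor half-site AGGTCA on either strand.
Serpina7, chrX:139085187-139085486, minus strand: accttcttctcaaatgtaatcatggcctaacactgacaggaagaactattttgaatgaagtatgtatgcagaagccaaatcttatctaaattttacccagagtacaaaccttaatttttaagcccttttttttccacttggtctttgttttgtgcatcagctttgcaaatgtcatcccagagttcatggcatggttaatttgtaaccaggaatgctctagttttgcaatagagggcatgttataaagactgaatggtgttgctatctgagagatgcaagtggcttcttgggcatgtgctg
Me1, chr9:86695865-86696164, minus strand: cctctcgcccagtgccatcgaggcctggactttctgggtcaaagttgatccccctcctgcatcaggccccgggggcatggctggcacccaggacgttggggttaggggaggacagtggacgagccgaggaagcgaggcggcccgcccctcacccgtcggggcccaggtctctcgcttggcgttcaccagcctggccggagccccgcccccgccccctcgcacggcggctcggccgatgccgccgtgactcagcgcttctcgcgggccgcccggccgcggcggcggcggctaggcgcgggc
Thrsp, chr7:97417501-97417800, minus strand: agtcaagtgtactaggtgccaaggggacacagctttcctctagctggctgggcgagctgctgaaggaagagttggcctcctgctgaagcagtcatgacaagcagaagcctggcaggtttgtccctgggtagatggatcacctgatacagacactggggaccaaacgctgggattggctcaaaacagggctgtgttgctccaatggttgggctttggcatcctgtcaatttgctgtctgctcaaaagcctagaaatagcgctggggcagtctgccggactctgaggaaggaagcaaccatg
Klf9, chr19:23140976-23141275, plus strand: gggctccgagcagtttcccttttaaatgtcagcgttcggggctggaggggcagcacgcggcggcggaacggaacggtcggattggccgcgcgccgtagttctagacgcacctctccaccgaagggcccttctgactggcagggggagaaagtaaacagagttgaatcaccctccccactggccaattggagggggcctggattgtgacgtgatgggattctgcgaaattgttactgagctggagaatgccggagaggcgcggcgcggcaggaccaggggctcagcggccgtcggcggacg
Thrb, chr14:17660710-17661009, plus strand: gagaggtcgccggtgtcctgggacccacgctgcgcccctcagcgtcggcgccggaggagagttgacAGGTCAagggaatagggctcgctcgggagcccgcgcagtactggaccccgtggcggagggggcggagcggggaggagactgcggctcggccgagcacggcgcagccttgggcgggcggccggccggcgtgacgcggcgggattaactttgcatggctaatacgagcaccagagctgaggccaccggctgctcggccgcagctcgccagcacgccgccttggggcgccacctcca
The half-site occurs once, in the Thrb window, and 16.3% of the 32851 windows of the genome's listed starts hold it. The direct repeat spaced by 4 bases, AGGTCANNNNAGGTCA, to which thyroid hormone receptors bind, is in none of the 5 windows and in 0.0152% of all windows. The repeat spaced by 1 base, AGGTCANAGGTCA, is in none of the 5 and in 0.0396% of all. These matches describe the letters in 300 bases and say nothing of binding elsewhere.

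Ttr encodes transthyretin, a plasma carrier of thyroxine and of retinol-binding protein that the liver secretes. In fetal liver the litters had log2 levels of 13.44, 13.46, 13.48, 13.56 and 13.64 at 0 mg/kg/day. The 5 mg/kg/day litters lay at 13.50, 13.48, 13.48, 13.44 and 13.46. At 10 mg/kg/day the levels were 13.45, 13.55, 13.47, 13.36 and 13.47. The 3 groups overlapped within a narrow span. Ttr in liver lay above 99.98% of the probe sets, close to the brightest signals of the arrays, which reached 13.82 to 13.92, and a microarray compresses differences there. The change at 10 against 0 mg/kg/day was -0.05 (SE 0.05, 95% interval -0.17 to 0.06, adjusted p = 0.610 by limma). At 5 against 0 mg/kg/day it was -0.04 (95% interval -0.15 to 0.07, adjusted p = 0.744 by limma). The other 3 Ttr probe sets changed by -0.06 to -0.03 in liver at 10 mg/kg/day.

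In fetal lung, Ttr was lower and far more variable between litters. The 0 mg/kg/day lungs had log2 levels of 10.34, 9.26, 9.20, 10.42 and 9.79. At 5 mg/kg/day the levels were 10.85, 9.67, 9.73, 9.76 and 10.49, and at 10 mg/kg/day 8.70, 10.45, 9.80, 9.54 and 10.55. Each dose group thus held both high and low litters, and the lowest litter of all was at 10 mg/kg/day. The changes were 0.01 at 10 against 0 mg/kg/day (95% interval -0.74 to 0.75) and 0.30 at 5 against 0 mg/kg/day (95% interval -0.45 to 1.04), each with an adjusted p of 0.998 by limma. With intervals this wide, a moderate change of lung Ttr in either direction was not detectable.

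Ttr in lung moved with markers of hepatocytes. Over the 15 lung arrays its level and the mean of the 8 hepatocyte markers had r = 0.949, against r = 0.280 over the 15 liver arrays, as a description of arrays that share 3 dose groups. All 8 markers were above the limit of dim signal on each lung array, and their mean ran from 8.43 to 10.05 at 0, from 8.98 to 10.48 at 5 and from 8.05 to 9.61 at 10 mg/kg/day. The other 3 Ttr probe sets followed the same litters in lung, with r of 0.974 to 0.993 to the one used. The genes most like Ttr in lung were Apoh (r = 0.958), Itih3 (0.957) and Apom (0.951), each a plasma protein gene of the liver, among 12373 genes compared over the 15 arrays. Apoh is itself one of the 8 hepatocyte markers. The part of hepatocyte RNA in the lung level of Ttr was not tested.

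**Figure D3:**
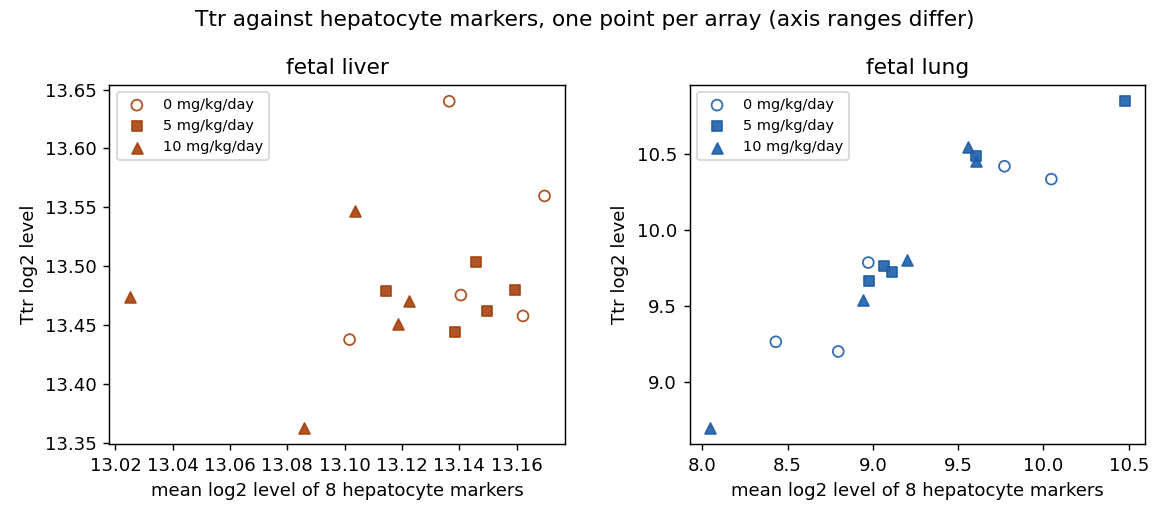
Ttr log2 level against the mean log2 level of 8 hepatocyte markers, 1 point per array, in liver (left) and lung (right). Marker shape gives the dose and colour the tissue, and axis ranges differ between the panels. In lung the points follow a line (r = 0.949) and the doses are mixed along it, and in liver all points lie close together (r = 0.280).

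The other plasma carriers were read from a list of 3, Ttr, Serpina7 and Alb. All 3 were tested in liver, and 1 rose and none fell at both doses, with a median change of 0.00 at 10 and 0.01 at 5 mg/kg/day. Of all genes tested in liver, 10.5% were called at 10 and 6.07% at 5 mg/kg/day. The gene that rose was Serpina7, which encodes thyroxine-binding globulin. The livers at 0 mg/kg/day had Serpina7 log2 levels of 7.43, 7.36, 8.49, 8.28 and 7.78. Those at 5 mg/kg/day had 9.01, 9.62, 9.49, 9.10 and 9.32, and those at 10 mg/kg/day 9.74, 9.43, 9.64, 10.02 and 9.80. All 10 exposed litters lay above all 5 unexposed litters, while the 5 and 10 mg/kg/day litters overlapped. Serpina7 was 3.62-fold higher at 10 than at 0 mg/kg/day (log2 change 1.86, SE 0.20, adjusted p = 1.22e-05 by limma) and 2.71-fold higher at 5 than at 0 mg/kg/day (1.44, SE 0.20, adjusted p = 0.000253 by limma). For Alb, which encodes albumin, the 10 mg/kg/day change was 0.00. Since Ttr and Alb both lie near the top of the array range and Serpina7 does not, their changes are not measured with equal sensitivity.

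Because each array is bulk tissue, fewer cells of a type and less RNA per cell cannot be told apart. Beside the Serpina7 rise, the mean of the hepatocyte markers in liver was 13.10 to 13.17 at 0, 13.11 to 13.16 at 5 and 13.03 to 13.12 at 10 mg/kg/day, and 2 of its 8 genes, Apoa1 (-0.17) and Ahsg (-0.18), fell at 10 mg/kg/day. Among 5 erythroid markers, 2 fell in liver at 5 mg/kg/day and none at 10 mg/kg/day. Beside these marker counts, 10.5% of all genes were called in liver at 10 and 6.07% at 5 mg/kg/day. The part of these shifts in the liver results was not tested.

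In lung, Serpina7 was dim and was not tested in the main fit. Its mean level there was 2.30 ± 0.40 at 0, 3.27 ± 0.33 at 5 and 3.74 ± 0.63 at 10 mg/kg/day (SD, n = 5 each), and this gene was looked at in lung after its liver values were seen. Without the limit on dim signal, its change in lung at 10 against 0 mg/kg/day was 1.44 with an adjusted p of 0.101 by limma. With both tissues in 1 fit, which it entered through liver, the adjusted p was 0.00536 by limma. All 3 group means lay under the limit, while the highest lung litter at 10 mg/kg/day reached 4.44. A change between levels mostly under the limit is not a measured difference in RNA.

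Thra encodes thyroid hormone receptor alpha, the receptor form that is widely expressed and early in development. In liver its litters had log2 levels of 6.40, 6.52, 6.48, 6.30 and 6.31 at 0 mg/kg/day. At 5 mg/kg/day they had 6.37, 6.41, 6.28, 6.29 and 6.27, and at 10 mg/kg/day 5.93, 6.31, 6.35, 6.34 and 6.10. All 5 litters at 10 mg/kg/day lay under the mean of the 0 mg/kg/day litters, but 3 of them were within the range of those litters. The change at 10 against 0 mg/kg/day was -0.19 (SE 0.08, 95% interval -0.36 to -0.02), with an adjusted p of 0.150 by limma, and it is the one member change under an unadjusted p of 0.05. An exact permutation test over the 5 against 5 litters, two-sided, gave p = 0.0794, where 0.00794 is the smallest it can give. At 5 against 0 mg/kg/day the change was -0.08 (95% interval -0.25 to 0.09, adjusted p = 0.659 by limma). The other 2 Thra probe sets changed by -0.16 and -0.12 in liver at 10 mg/kg/day. These 2 probe sets followed the one used only weakly over the 15 liver arrays (r = 0.293 and 0.149). Their changes at 10 mg/kg/day were no larger than their SE (0.16 and 0.12). At 5 mg/kg/day they changed by -0.11 (SE 0.17) and -0.27 (SE 0.11), so the second went beyond its SE there. A change of Thra in liver was thus not shown with the probe set used.

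In lung, Thra averaged 8.25 ± 0.14 at 0, 8.28 ± 0.18 at 5 and 8.20 ± 0.17 at 10 mg/kg/day (SD, n = 5 each). Litters ranged from 7.92 to 8.47 and the groups overlapped throughout. The change was -0.05 at 10 against 0 mg/kg/day (95% interval -0.26 to 0.16, adjusted p = 0.948 by limma) and 0.03 at 5 against 0 mg/kg/day (95% interval -0.19 to 0.24, adjusted p = 0.998 by limma). The liver change minus the lung change at 10 mg/kg/day was -0.14 (95% interval -0.41 to 0.13, adjusted p = 0.662 by limma). At 5 mg/kg/day it was -0.11 (95% interval -0.38 to 0.16, adjusted p = 0.846 by limma). With the probe set used, the tissues were thus not shown to differ in it. The other Thra probe sets gave -0.25 (SE 0.18) and -0.18 (SE 0.18) at 10 mg/kg/day. At 5 mg/kg/day they gave -0.22 (SE 0.20) and -0.39 (SE 0.15), so the second went beyond its SE there.

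Thrb encodes thyroid hormone receptor beta, the main receptor form of adult liver. It was near the limit of dim signal in fetal liver, with litters at 3.93, 4.13, 4.49, 4.33 and 3.93 at 0 mg/kg/day. At 5 mg/kg/day they were at 4.30, 4.05, 3.94, 3.99 and 4.03, and at 10 mg/kg/day at 4.08, 4.28, 4.38, 4.25 and 4.29. Thrb thus passed the limit in 2, 1 and 4 of 5 litters at 0, 5 and 10 mg/kg/day. Its change was 0.09 at 10 against 0 mg/kg/day (95% interval -0.13 to 0.32, adjusted p = 0.648 by limma) and -0.10 at 5 against 0 mg/kg/day (95% interval -0.32 to 0.12, adjusted p = 0.659 by limma). Against 5 mg/kg/day the 10 mg/kg/day litters were higher by 0.20 (95% interval -0.03 to 0.42, adjusted p = 0.663 by limma), with an exact permutation p of 0.0556, two-sided. In lung Thrb was under the limit on all 15 arrays and was not tested, with means of 3.41 ± 0.24, 3.42 ± 0.20 and 3.46 ± 0.09 at 0, 5 and 10 mg/kg/day (SD, n = 5 each).

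The receptor list held both receptors and their retinoid X partners, of which 4 of 5 genes were tested in liver. None rose or fell at 10 or at 5 mg/kg/day, with median changes of -0.01 and -0.09. Of 12 corepressors and coactivators tested in liver, 1 rose at the higher dose and 1 fell at the lower. The shares of all genes called in liver were 10.5% at 10 and 6.07% at 5 mg/kg/day, so these counts are near the background. Ppargc1b, a coactivator of mitochondrial and lipid genes, rose at 10 mg/kg/day by 0.60 (adjusted p = 0.0132 by limma), and its change at 5 mg/kg/day was 0.38 (adjusted p = 0.139 by limma). Gps2, a subunit of the corepressor complex that holds NCOR, fell by 0.29 (adjusted p = 0.0420 by limma) in the 5 mg/kg/day litters, and at 10 mg/kg/day its change was -0.15 (adjusted p = 0.288 by limma). The Gps2 call was lost in 8 of the 10 fits that left out 1 litter.

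Dio1 encodes type 1 deiodinase, a selenoprotein of adult liver and kidney whose transcription rises with triiodothyronine. It lay under the limit of dim signal on all 30 arrays and was not tested. Its liver means were 2.55 ± 0.16, 2.50 ± 0.20 and 2.51 ± 0.13 at 0, 5 and 10 mg/kg/day (SD, n = 5 each), and its lung means were 2.26 ± 0.24, 2.26 ± 0.05 and 2.21 ± 0.09. At this level the array gives no measure of change, and the exact permutation p for 10 against 0 mg/kg/day in liver was 0.690, two-sided. Dio2, the type 2 deiodinase, was dim in liver too. Of the 6 genes tested in liver from a list of deiodinases and selenoprotein synthesis, 1 fell and none rose at 10 mg/kg/day. None was called at 5 mg/kg/day, and the shares of all genes called were 10.5% at 10 and 6.07% at 5 mg/kg/day. The gene that fell was Sepsecs, an enzyme of selenocysteine synthesis, by 0.27 (adjusted p = 0.00800 by limma). Iyd, which recovers iodide from iodotyrosines, was the 1 tested gene of an iodide list of 2 and its level fell by 0.55 (adjusted p = 0.00328 by limma) in the 10 mg/kg/day litters, while the change at 5 mg/kg/day was -0.18 (adjusted p = 0.397 by limma).

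Klf9 encodes a zinc finger transcription factor that triiodothyronine and glucocorticoids both induce. In liver its litters had log2 levels of 8.39, 8.82, 8.85, 9.02 and 9.09 at 0 mg/kg/day. The 5 mg/kg/day litters had 8.62, 8.53, 8.95, 8.80 and 8.70, and at 10 mg/kg/day 8.83, 8.40, 8.89, 8.54 and 8.78. The exposed litters lay inside the range of the unexposed ones. The change was -0.15 at 10 against 0 mg/kg/day (SE 0.13, 95% interval -0.42 to 0.13, adjusted p = 0.544 by limma) and -0.11 at 5 against 0 mg/kg/day (95% interval -0.38 to 0.16, adjusted p = 0.695 by limma). Its other 6 probe sets changed by -0.23 to 0.14 in liver at 10 mg/kg/day, so they did not all share a direction. The value of 0.14 came from a probe set dim on all 30 arrays, and the other rises were 0.06 and 0.004. Those that followed the one used most closely over the liver arrays (r = 0.845 and 0.861) changed by -0.18 and -0.10. In lung Klf9 averaged 9.80 ± 0.16, 9.86 ± 0.11 and 9.80 ± 0.22 at 0, 5 and 10 mg/kg/day (SD, n = 5 each). The lung change was -0.01 at 10 against 0 mg/kg/day (95% interval -0.22 to 0.21) and 0.06 at 5 against 0 mg/kg/day (95% interval -0.16 to 0.27). Intervals for Klf9 in lung were narrower than those for Ttr.

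Thrsp encodes Spot 14, a nuclear protein of lipogenic tissue named for its response to thyroid hormone. In liver it varied most among the members between litters of 1 group, with levels of 6.80, 7.15, 6.97, 6.48 and 8.30 at 0 mg/kg/day. The litters at 5 mg/kg/day had 8.11, 7.35, 6.99, 6.44 and 7.83, and those at 10 mg/kg/day had 7.11, 7.14, 7.04, 7.05 and 6.38. The highest litters were found at 0 and 5 mg/kg/day and not at 10 mg/kg/day, where 4 litters lay close together and the fifth was lower. The group SD was 0.69, 0.66 and 0.32 at 0, 5 and 10 mg/kg/day. The change was -0.20 at 10 against 0 mg/kg/day (SE 0.32, 95% interval -0.88 to 0.49, adjusted p = 0.779 by limma) and 0.20 at 5 against 0 mg/kg/day (95% interval -0.48 to 0.89, adjusted p = 0.793 by limma). Leaving out the unexposed litter at 8.30 turned the first change to 0.09. A second Thrsp probe set followed the one used over the liver arrays (r = 0.961), and the third did not (r = -0.05).

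In lung Thrsp was near the limit of dim signal, above it in 3, 1 and 3 of 5 litters at 0, 5 and 10 mg/kg/day. Its means were 4.11 ± 0.29, 4.02 ± 0.32 and 4.17 ± 0.39 (SD, n = 5 each). The changes were 0.06 at 10 against 0 mg/kg/day (95% interval -0.34 to 0.46) and -0.09 at 5 against 0 mg/kg/day (95% interval -0.49 to 0.32). At a level this low the array compresses differences.

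Of 14 tested from a list of 16 that includes Thrsp and Klf9, the higher dose had 3 that rose and 1 that fell, and the lower dose 3 that rose and none that fell. These are 4 and 3 of 14 genes, beside the 10.5% and 6.07% of all genes called in liver, and the other 10 and 11 did not pass the test. The median change over the list was -0.14 at 10 and -0.03 at 5 mg/kg/day. Me1, cytosolic malic enzyme, which supplies NADPH for fatty acid synthesis, had log2 levels of 7.17, 7.31, 7.36, 6.80 and 7.54 in the livers at 0 mg/kg/day. At 5 mg/kg/day the litters had 8.64, 8.91, 8.36, 8.18 and 8.63, and at 10 mg/kg/day 9.31, 8.75, 8.81, 9.05 and 9.07. Each exposed litter lay above each unexposed one. Me1 was 3.40-fold higher at 10 than at 0 mg/kg/day (log2 change 1.76, SE 0.15, adjusted p = 1.09e-06 by limma) and 2.48-fold higher at 5 than at 0 mg/kg/day (1.31, adjusted p = 4.60e-05 by limma).

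The others that rose were the fatty acid synthesis enzymes Fasn and Acaca. At 10 mg/kg/day Fasn rose by 0.45 (adjusted p = 0.0180 by limma) and Acaca by 0.43 (adjusted p = 0.00659 by limma). In the 5 mg/kg/day litters each rose by 0.44 (adjusted p = 0.0307 for Fasn and 0.00994 for Acaca by limma), and both calls at this dose were lost in some alternatives. Cyp7a1, which starts the conversion of cholesterol to bile acids, fell by 1.41 (SE 0.22, adjusted p = 0.000625 by limma) in the 10 mg/kg/day litters, while the change at 5 mg/kg/day was -0.65 (adjusted p = 0.108 by limma). Me1, Fasn and Acaca are also known targets of receptors for fatty acids and sterols, and Cyp7a1 of bile acid receptors, so their membership of the list does not make them specific to thyroid hormone. Thrsp and Klf9, from the same list, had the intervals given above.

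**Figure D4:**
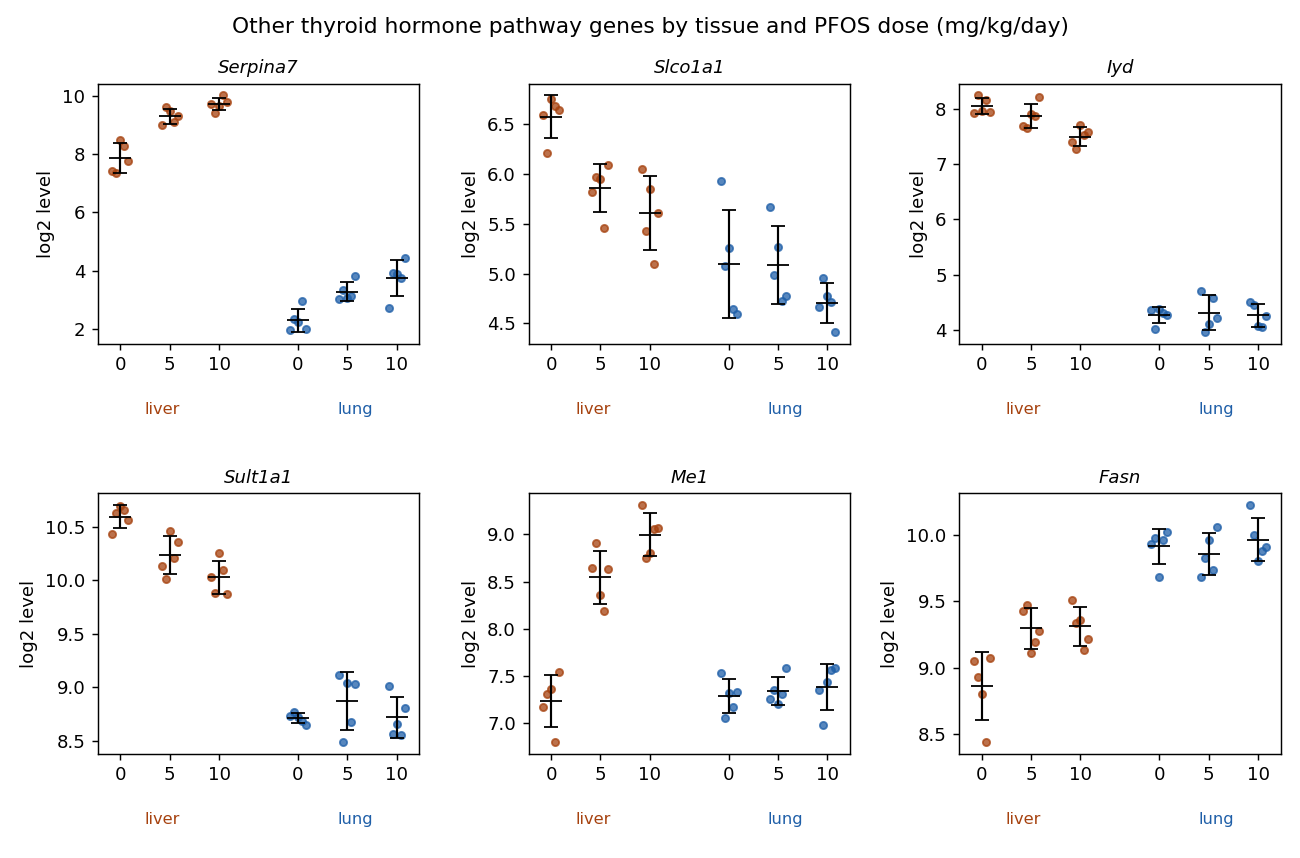
Log2 levels in each litter of 6 other genes of the pathway (Serpina7, Slco1a1, Iyd, Sult1a1, Me1 and Fasn), by tissue and dose in mg/kg/day, with group means and SD (n = 5). In liver Serpina7 and Me1 are higher in every exposed litter than in every unexposed one and Slco1a1 is lower, while Me1 in lung stays between group means of 7.28 and 7.38.

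Membrane transporters and enzymes that conjugate the hormone mostly did not pass the test in liver. Of 9 transporters tested from a list of 11, 1 fell and none rose at each dose, with median changes of -0.07 at 10 and -0.10 at 5 mg/kg/day. The gene that fell was Slco1a1, an organic anion transporter of the hepatocyte membrane, by 0.97 at 10 mg/kg/day (SE 0.16, adjusted p = 0.000944 by limma) and by 0.72 at 5 mg/kg/day (adjusted p = 0.0140 by limma). Its group means were 6.58 ± 0.21, 5.86 ± 0.24 and 5.61 ± 0.37 at 0, 5 and 10 mg/kg/day (SD, n = 5 each), and no exposed litter reached the unexposed range. Of 7 tested genes of glucuronidation and sulfation, 2 fell at the higher dose and 1 at the lower. Sult1a1, a phenol sulfotransferase, fell by 0.57 (adjusted p = 0.000730 by limma) in the 10 mg/kg/day litters, and it fell by 0.36 (adjusted p = 0.0277 by limma) in the 5 mg/kg/day litters, a call that was lost in 6 of the 10 fits that left out 1 litter. Ugt2b1, a glucuronosyltransferase, fell by 0.73 (adjusted p = 0.0408 by limma) in the 10 mg/kg/day litters, a call that was lost in 8 of the 10 fits that left out 1 litter. Counting each gene once and leaving out the members, 11 of 50 tested pathway genes were called in liver at 10 mg/kg/day and 7 of 50 at 5 mg/kg/day, beside the 10.5% and 6.07% of all genes. In the main lung fit no gene tested from any of these lists was called at either dose.

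**Figure D5:**
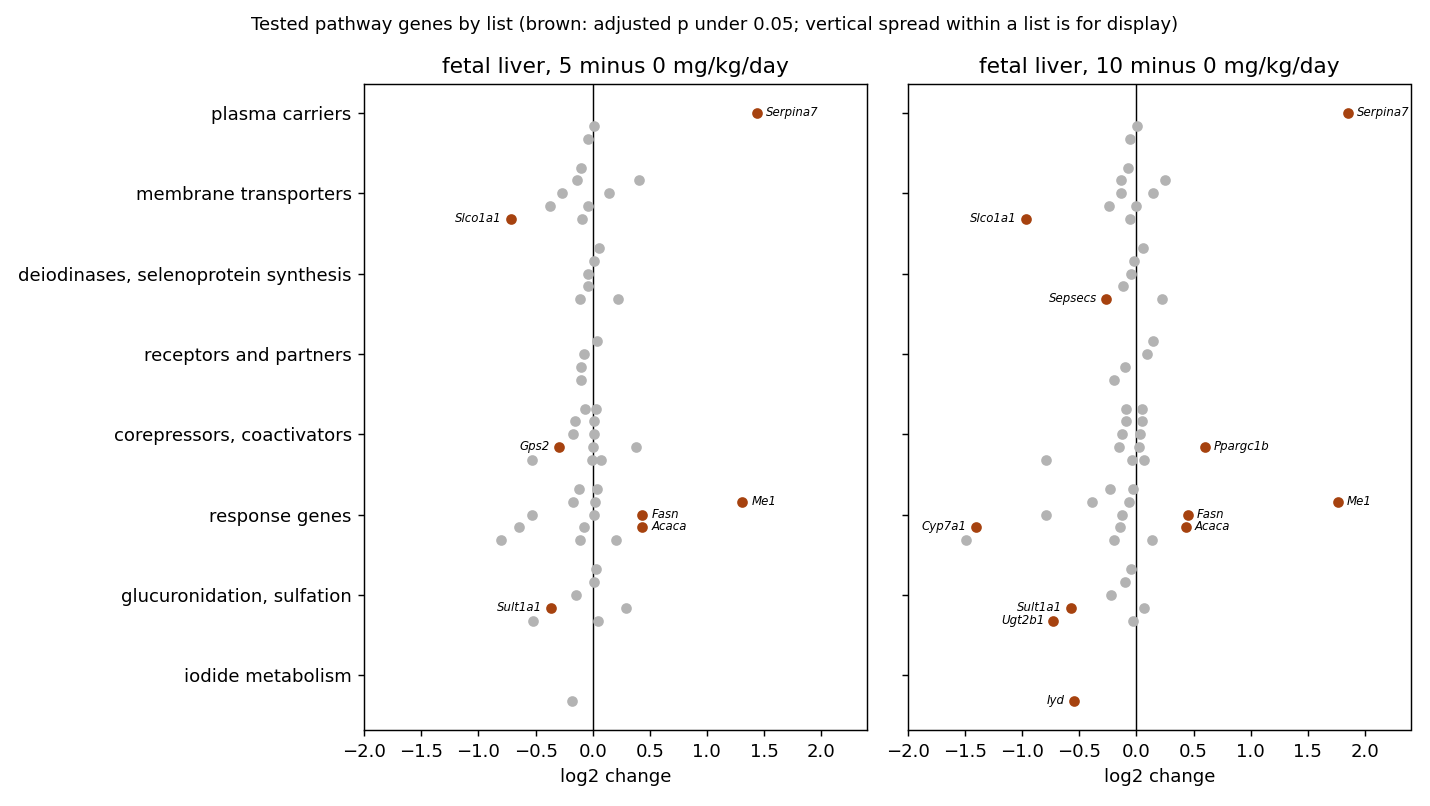
Log2 change in liver of each tested gene of the 8 pathway lists at 5 (left) and 10 (right) against 0 mg/kg/day, 1 row per list; brown points had an adjusted p under 0.05 by limma and are named. Serpina7 (1.86 at 10 mg/kg/day) and Me1 (1.76) stand farthest to the right, and Cyp7a1 (-1.41) is the called gene farthest to the left at 10 mg/kg/day.

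Members differed in level between liver and lung. In unexposed litters Ttr was higher in liver by 3.71 on the log2 scale (SE 0.26, adjusted p = 2.13e-13 by limma), and Thrsp by 3.03 (SE 0.28, adjusted p = 7.6e-11 by limma). Both sizes are approximate, since liver Ttr lies near the top of the array range and lung Thrsp near the limit of dim signal. Thrb averaged 4.16 in liver and 3.41 in lung, where it was under the limit on all 15 arrays, so no fold is given and it entered the fit of all 30 arrays through liver. Thra ran the other way, with a liver level 1.85 below that of lung on the log2 scale (difference -1.85, SE 0.09, adjusted p = 5.77e-17 by limma), and so did Klf9 (-0.97, SE 0.12, adjusted p = 2.27e-08 by limma). For each of the 5 genes the unexposed litters of liver and lung did not overlap. With 82.9% of all genes tested called between the tissues and 69.8% fully apart, these counts are the background of the comparison and not a trait of the 5 genes.

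Probe sets of a gene did not all give the same tissue difference. For Thra the other 2 gave -0.84 and -0.67, and for Ttr the other 3 gave 3.67, 3.99 and 4.59. For Thrsp the second gave 1.94 and the third, which did not follow the others, gave 0.30. Of the other 6 for Klf9, 5 gave -0.94 to -0.41, and 1, dim on all 30 arrays, gave 0.28. Direction was thus shared within each gene except in that dim Klf9 probe set. Dio1 differed by 0.29 between liver and lung, both under the limit of dim signal (exact permutation p = 0.0556, two-sided).

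For each tested member all 3 groups of one tissue lay above all 3 of the other. Within a tissue, neighbouring dose groups differed by less than the spread between litters for Ttr, Thrsp and Klf9. Thra in liver stood highest at 0, then at 5 and lowest at 10 mg/kg/day, with overlapping neighbours. The difference for Me1 between liver and lung at 0 mg/kg/day was -0.04.

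Whether the PFOS change differed between liver and lung was tested for each member in 1 fit of all 30 arrays. At 10 mg/kg/day 0 of 5 members passed, against 3.88% of all genes, and at 5 mg/kg/day 0 of 5 passed, against 2.05%. The liver change minus the lung change at 10 mg/kg/day was -0.26 for Thrsp (95% interval -1.07 to 0.56), -0.06 for Ttr (95% interval -0.83 to 0.71), -0.14 for Klf9 and 0.04 for Thrb, which was dim in lung, each with an adjusted p of 0.769 or more by limma. Of the pathway genes, Me1 differed between tissues at 10 mg/kg/day (1.66, SE 0.20, adjusted p = 2.24e-06 by limma) and at 5 mg/kg/day (1.25, adjusted p = 0.000269 by limma). Serpina7 entered that fit through liver, and its difference between tissues was not called at either dose. Its group means in lung were under the limit of dim signal, so the size of that difference is not given. Sult1a1 also differed at 10 mg/kg/day (-0.58, adjusted p = 0.0247 by limma).

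The members did not follow each other over litters. Over the 15 liver arrays the correlations between pairs of the 5 tested members ran from -0.22 to 0.44, and over the 15 lung arrays those of the 4 tested members ran from -0.49 to 0.43. The genes whose levels were most like each member were ranked by Pearson's r over the 15 arrays of a tissue, among 12656 genes in liver. For Thra in liver they were Tmem43 (r = 0.791), Cebpzos (0.781) and Slc22a17 (0.767), and for Thrb Map3k1 (0.801), Tmem151a (0.797) and Ifitm2 (0.751). Klf9 was most like Zg16 (0.856), Gas1 (0.835) and Hoxa5 (0.828), Thrsp most like Mtif3 (0.824), Rab6a (0.749) and Mfsd4b1 (0.743), and Ttr most like Nfyc (0.812), Serpina5 (0.806) and Nup54 (0.778). In lung Thra was most like Hdgf (0.900), Midn (0.897) and Wbp1 (0.891), Klf9 most like Hilpda (0.832), Acer2 (0.830) and Sft2d2 (0.828), and Thrsp most like Wfdc17 (0.890), Apobec1 (0.862) and Ddx58 (0.851). The 3 leading genes were different for each member and tissue, and these correlations, the highest of many, are given as a description.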

How the data were processed

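The authors deposited 1 log2 value per probe set and array, summarised by RMA per the submitters' processing notes, which give no version. RMA corrects background and normalizes between arrays. Array values compress differences of dim and of very bright probe sets. Of 45101 probe sets, those with 1 symbol in the platform annotation were used, and the brightest per gene stood for it. From these values, limma 3.58.1 in R 4.3.3 fitted 1 mean per dose in each tissue, or per tissue and dose over all 30 arrays. Genes above the 40th percentile on at least 5 arrays were tested, 13269 in liver and 12897 in lung, two-sided with Benjamini-Hochberg adjustment over all of them. The test was checked on simulated data, with recovery required only of changes far larger than those of the members. Its sensitivity to changes of the members' size is not given. The number of arrays limits the precision.

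The labels give litters as separate samples. The labels do not say whether liver and lung arrays of 1 number share a litter. The members and gene lists were chosen with earlier results of these data known. Pathway genes were named by rule: up to 4 called per list and comparison by size, or else up to 2 with the smallest p, and the 3 genes most correlated with each member. Ppargc1a and the lung values of Serpina7 were added after their values were seen. Alternatives covered the filter, scaling, array weights, the variance fit, probe set choice, the samples in the fit, blocks and leaving out each litter. Promoters are from RefSeq.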

Additional observations from a re-analysis of the deposited data

Results flagged for a closer look

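Among the members, 1 liver stood apart from its group. Thrsp in litter 5 at 10 mg/kg/day was at 6.3777, while the other 4 litters lay between 7.04 and 7.14. Over the members and 14 pathway genes, 120 groups of 5 litters were looked at and 6 held a litter this far from the rest, where chance gives about 6 at 1 in 20. The other 5 were in lung. Ppargc1b was at 6.7295 in litter 5 at 10 mg/kg/day, against a mean of 5.93 over the rest of the group. In litter 1 at 5 mg/kg/day Ugt2b1 was at 4.3938, against 2.15 to 2.41. In unexposed lungs Ugt2b1 was at 4.6249 in litter 1, against 2.08 to 2.61, Tbl1x was at 8.6223 in litter 1, against 8.82 to 8.87, and Fasn was at 9.6828 in litter 3, against 9.93 to 10.02. Both lungs with a high Ugt2b1 had the highest hepatocyte marker mean of their group, 10.48 at 5 and 10.05 at 0 mg/kg/day, and the part of hepatocyte RNA was not tested.

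The PFOS change differed between liver and lung, by limma's test of the difference itself, for no member and for 4 pathway genes. For Me1 the liver change minus the lung change was 1.66 at 10 and 1.25 at 5 mg/kg/day. For Sult1a1 it was -0.58 at 10 mg/kg/day (adjusted p = 0.0247). For Ppargc1a, a coactivator of gluconeogenic and mitochondrial genes, it was -1.05 at 10 mg/kg/day (adjusted p = 0.0357), with liver means of 6.18, 5.65 and 5.39 and lung means of 4.92, 5.02 and 5.19 at 0, 5 and 10 mg/kg/day. For Tbl1x, a corepressor subunit, it was -0.26 at 10 mg/kg/day (adjusted p = 0.0413), a call lost in 6 of 9 other settings, with an adjusted p of 0.292 for the mean of its probe sets. Tbl1x itself was called in neither tissue. With a block of dose and number together, the Ppargc1a difference had an adjusted p of 0.0608 and the Tbl1x difference one of 0.0857, so neither held.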

How the results depend on the processing

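The count of members called stayed at 0 in each dose comparison, and in each difference between tissues, under every alternative run, and no member's adjusted p went under 0.115. All tested members were called between tissues in every alternative, beside 82.9% of all genes tested in the main fit. Thrb entered that main fit through liver alone. With the replicate number as a block, 0 of 5 members in liver and 0 of 4 in lung were called, the Ugt2b1 call was lost (adjusted p = 0.0706), and Ppargc1a in liver gained one at 10 mg/kg/day (adjusted p = 0.0454, against 0.0523 without the block), as it also did with the stricter filter (0.0397), the mean of probe sets (0.0169) and both tissues in 1 fit (0.0101). On same-numbered arrays, the deviations of genes from their group means correlated at -0.278 to 0.359 between doses. There 0 to 2 of 5 arrays correlated best with their own number, so numbers were not shown to pair dose groups. Between liver and lung these deviations correlated at 0.0734 to 0.141 at 0, -0.000766 to 0.296 at 5 and 0.114 to 0.229 at 10 mg/kg/day. Between the tissues 5, 3 and 5 of 5 arrays correlated best with their own number, a hint from the data and not from the labels. A block of dose and number ended the Ppargc1a and Tbl1x differences between tissues and changed no member's call. Several member changes turned sign, and the cause was not tested. Most of these were close to 0 in the main fit. Thrsp was not, at -0.20 in liver at 10 against 0 mg/kg/day and -0.26 for its difference between tissues at 10 mg/kg/day. With quantile normalization Ttr in liver was 0.0019 at 10 and 0.0273 at 5 against 0 mg/kg/day, and its difference between tissues at 10 mg/kg/day was 0.0015. With the mean of all probe sets, Thra in lung was 0.0359 and Thrsp in lung -0.0106 at 10 against 0 mg/kg/day. With array weights, Ttr in lung was -0.0257 and Klf9 in lung 0.0039. Leaving out 1 litter at a time gave, at 10 against 0 mg/kg/day, -0.360 to 0.0938 for Thrsp in liver and, in lung, -0.0968 to 0.0210 for Thra, -0.0558 to 0.182 for Thrsp, -0.179 to 0.283 for Ttr and -0.0756 to 0.0674 for Klf9. At 5 against 0 mg/kg/day Thra in lung ran from -0.0190 to 0.0821. At 10 against 5 mg/kg/day Ttr in liver ran from -0.0340 to 0.0120, Klf9 in liver from -0.0853 to 0.0392 and Klf9 in lung from -0.132 to 0.0105. The difference between tissues at 10 mg/kg/day ran from -0.0179 to 0.137 for Thrb, from -0.420 to 0.0339 for Thrsp and from -0.337 to 0.126 for Ttr. Of the pathway calls, Serpina7, Slco1a1 and Me1 at both doses and Cyp7a1, Iyd, Sult1a1, Sepsecs, Ppargc1b, Fasn and Acaca at 10 mg/kg/day were kept under all alternatives, which for pathway genes were chosen after seeing the data. At 5 mg/kg/day the calls of Fasn and Sult1a1 were lost in 5 and 6 of 10 fits without 1 litter (adjusted p up to 0.0778 and 0.0722), that of Acaca with the mean of all probe sets (0.0565), and 4 pathway genes in place of 7 were called without unexposed litter 3. The difference between tissues was lost for Sult1a1 without litter 5 of liver at 10 mg/kg/day (adjusted p = 0.0513) or litter 1 of lung at 10 mg/kg/day (0.0565), for Ppargc1a in 11 and for Tbl1x in 13 of 20 such fits, and for Tbl1x in 6 of 9 other settings. Dim signal limits Dio1 in both tissues, Thrb and, in lung, Thrsp and Serpina7.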

Other observations

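Markers of other tissues were also present on the lung arrays. The mean of 5 cardiac muscle markers had medians of 8.85, 9.14 and 9.97 at 0, 5 and 10 mg/kg/day, and the mean of 4 skeletal muscle markers had medians of 5.01, 6.11 and 6.18. No gene of either list was called in lung at either dose. The mean of 4 thyroid gland markers lay between 3.40 and 4.20 over the 30 arrays, with 1 or 2 of the 4 above the limit of dim signal on an array.

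Ppargc1a, a coactivator that is no member and was picked after its values were seen, averaged 6.18 ± 0.56, 5.65 ± 0.46 and 5.39 ± 0.25 in liver at 0, 5 and 10 mg/kg/day (SD, n = 5 each). Its change at 10 against 0 mg/kg/day was -0.79 with an adjusted p of 0.0523 by limma, and Ppargc1b, of the same family, changed the other way by 0.60 (adjusted p = 0.0132 by limma).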
